A study of Mus musculus with 4 samples.

Results

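The 10 genes described here serve MHC class I antigen presentation, and they were found by symbol among the 31053 genes of the count matrices. They comprised 2 classical class I heavy chains (H2-K1 and H2-D1), the non-classical heavy chain H2-T23, the light chain B2m, the transporter subunits Tap1 and Tap2, the loading factor Tapbp, the immunoproteasome subunits Psmb8 and Psmb9, and the transactivator Nlrc5. Each symbol matched 1 gene, and all 10 had UMIs in every library.

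Class I molecules display short peptides from the cell's own proteins to CD8 T cells. Proteasomes cut the proteins, and interferon favours an immunoproteasome in which inducible subunits such as Psmb8 and Psmb9 replace the constitutive ones. The Tap1 and Tap2 heterodimer carries the peptides into the endoplasmic reticulum, Tapbp (tapasin) bridges the transporter and the empty heavy chain, and the loaded heavy chain leaves for the cell surface with beta-2-microglobulin, the product of B2m. Nlrc5 is the transcriptional coactivator of this gene set and is itself inducible by interferon. Neurons as a rule hold little class I at rest, and satellite glial cells (SGCs) wrap the cell bodies of sensory neurons in the dorsal root ganglion (DRG).

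The cells came from Pirt EGFPf heterozygous mice on a C57BL/6 background, 7-8 weeks old, in which a membrane-targeted EGFP stands under the endogenous promoter of Pirt, a gene of sensory neurons. Males and females had chronic constriction injury (CCI) of both sciatic nerves or sham surgery, and L4-5 DRGs were taken on day 7, so every group carried the reporter allele. Each of the 4 libraries (Male-Sham and Female-Sham, then Male-CCI and Female-CCI, the order of all series of 4 values below) pooled 20 DRGs from 5 mice, and GFP+ cells were sorted before droplet capture. Each surgery was thus measured in 2 libraries, 1 male and 1 female, littermates had the same surgery, and the spread between animals and the effect of litter cannot be told apart from these data.

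The libraries held 4019 to 8035 cells and 195684124 to 237069156 UMIs (unique molecular identifiers, counted molecules). Filters on doublets, genes, and mitochondrial UMIs left 15715 cells, among them 15134 neurons, 559 SGC-like cells, and 22 cells with 3 or more immune markers that were set aside. Neurons numbered 3281, 5398, 2817, and 3638, and SGC-like cells, few after a sort for neurons, numbered 184, 148, 120, and 107. SGC-like cells had a median of 4184 to 5175 UMIs per cell against 32490 to 56457 in neurons. Of the kept cells, 904 had a barcode that also occurred in another library, and leaving them out is among the alternatives. Neurons were Sprr1a+ when the log-normalized UMI value of Sprr1a, a gene switched on by axon injury, was above 1, which gave 42, 144, 1467, and 1790 neurons. Levels are given as CPM, a gene's share of the UMIs that all cells of 1 class and 1 library hold together, scaled to a total of 1000000, with the SD over n = 2 libraries, and because each UMI is a tag at the 3' end they are compared between cells and not between genes.

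Of the 10 genes, 8 lie on chromosome 17 in the H2 complex, B2m lies on chromosome 2 (chr2:122147686-122153083, plus strand), and Nlrc5 on chromosome 8 (GRCm38, GENCODE). Promoters, taken as the 250 bases before the RefSeq start (GRCm38.p6), were found for 8 of the 10, without Tap2 and Nlrc5. They are shown for the 6 genes called in SGC-like cells after CCI below, 5' to 3' on the gene's strand, with capitals marking matches on either strand to the core of an interferon-stimulated response element (TTCNNTTTC), the X2 or cAMP response element core (TGACG), the Y box (CCAAT), and an NF-kB core (GGGNNTTCC).
H2-K1, chr17:34000348-34000597, minus strand: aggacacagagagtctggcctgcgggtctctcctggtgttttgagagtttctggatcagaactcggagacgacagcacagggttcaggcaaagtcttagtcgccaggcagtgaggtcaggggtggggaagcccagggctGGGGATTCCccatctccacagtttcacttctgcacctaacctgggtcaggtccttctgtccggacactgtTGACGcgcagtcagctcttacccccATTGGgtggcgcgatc
H2-D1, chr17:35262844-35263093, plus strand: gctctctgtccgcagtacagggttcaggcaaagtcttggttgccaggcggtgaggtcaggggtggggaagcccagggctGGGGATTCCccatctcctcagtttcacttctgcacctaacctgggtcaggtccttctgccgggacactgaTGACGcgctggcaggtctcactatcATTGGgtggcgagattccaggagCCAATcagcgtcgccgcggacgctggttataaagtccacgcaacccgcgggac
H2-T23, chr17:36032702-36032951, minus strand: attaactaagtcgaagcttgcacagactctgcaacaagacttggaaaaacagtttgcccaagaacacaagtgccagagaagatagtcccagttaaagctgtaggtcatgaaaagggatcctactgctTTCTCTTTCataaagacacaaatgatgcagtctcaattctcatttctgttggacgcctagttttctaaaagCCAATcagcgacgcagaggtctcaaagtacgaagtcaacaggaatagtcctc
B2m, chr2:122147437-122147686, plus strand: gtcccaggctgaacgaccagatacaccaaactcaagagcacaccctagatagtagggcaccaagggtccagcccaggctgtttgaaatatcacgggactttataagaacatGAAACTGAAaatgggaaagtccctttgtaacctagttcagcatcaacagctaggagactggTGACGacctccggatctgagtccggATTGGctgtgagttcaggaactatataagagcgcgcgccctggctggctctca
Tap1, chr17:34187306-34187555, plus strand: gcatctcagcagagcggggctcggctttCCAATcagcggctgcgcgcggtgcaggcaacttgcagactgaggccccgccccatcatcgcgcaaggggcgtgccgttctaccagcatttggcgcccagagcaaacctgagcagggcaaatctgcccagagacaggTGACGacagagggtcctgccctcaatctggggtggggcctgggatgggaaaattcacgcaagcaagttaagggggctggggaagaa
Psmb8, chr17:34197945-34198194, plus strand: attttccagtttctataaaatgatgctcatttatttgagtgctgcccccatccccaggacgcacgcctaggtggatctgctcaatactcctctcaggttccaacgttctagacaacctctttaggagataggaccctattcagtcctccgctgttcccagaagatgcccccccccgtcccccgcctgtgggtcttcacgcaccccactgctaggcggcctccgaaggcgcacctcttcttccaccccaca
None of these matches overlapped another, and the Psmb8 window held none of the 4 motifs. The windows of Psmb8 and H2-D1, and of Tapbp and Psmb9 among those not shown, lay inside the GENCODE gene, and that of H2-T23 in large part. For Psmb8 the window began at 34197945 and the GENCODE gene at 34197721, so the bases before the GENCODE start were not searched. H2-K1 and H2-D1 shared the NF-kB core followed by TGACG and a Y box, in that order, and B2m had an interferon-response core, TGACG, and a Y box. Over the 8 promoters, the interferon-response core was found in 2, TGACG in 5, the Y box in 7, and the NF-kB core in 2. Of all 32851 promoters of the same length 7.13%, 17.8%, 33.8%, and 4.98% held them, so the letters alone are common and a match is a description and not a site. Forms that differ from these patterns by a base were not searched. A window without a match, as H2-K1 and H2-D1 for the interferon-response core, is therefore not shown to lack such an element. Tap1 and Psmb9 stand head to head on opposite strands and their transcripts overlap. H2-K1, H2-D1, and H2-T23 belong to a family of related class I genes, so reads could be split or lost between them, which was not tested.

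As a share of UMIs, all 3 heavy chains, B2m, both transporter subunits, Tapbp, and both immunoproteasome subunits were higher in SGC-like cells than in neurons of the same libraries. Neurons held far more UMIs per cell, so this is not a comparison of transcripts per cell. B2m had 473, 535, 713, and 861 CPM in SGC-like cells and 80.3, 89.8, 89.8, and 106 CPM in neurons, which differed by a log2 fold change of 2.72 (SE 0.10, edgeR's quasi-likelihood test with library as a term, Benjamini-Hochberg adjusted p = 1.16e-26). H2-K1 had 429, 545, 717, and 779 CPM in SGC-like cells against 57.2, 60.9, 40.9, and 53.1 CPM in neurons. Every SGC-like library was above every neuronal one for both genes.

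In this comparison 9 of the 10 genes were called higher (adjusted p under 0.05 and a log2 fold change above 0.5), where 23.9% of all genes tested were. The members had a median log2 difference of 2.92 and all genes one of -0.34. The difference was 3.84 (SE 0.26) for Tap2, 3.68 (SE 0.27) for Tap1, 3.46 (SE 0.26) for H2-K1, and 3.29 (SE 0.27) for H2-T23. It was smallest among those called for Tapbp, 1.53 (SE 0.27), and H2-D1, 1.59 (SE 0.11).

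Neurons of these libraries were not without class I transcripts. H2-D1 was at 186, 189, 175, and 201 CPM in neurons against 438, 517, 684, and 788 CPM in SGC-like cells, so that the SGC-like level was 2.35, 2.73, 3.90, and 3.92 times the neuronal one. The constitutive proteasome subunits Psmb5, Psmb6, and Psmb7, which Psmb8 and Psmb9 and their partner replace, went the other way, with all 3 called lower in SGC-like cells, where 34.4% of all genes tested were, and a median log2 difference of -1.35. Nlrc5 had 3, 1, 3, and 3 UMIs in SGC-like cells, too few for a ratio.

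To compare at 1 depth, the cells were thinned to 2000 UMIs each, and none had fewer. A B2m UMI was then found in 57.1%, 55.4%, 72.5%, and 67.3% of SGC-like cells and in 16.9%, 17.0%, 16.4%, and 18.7% of neurons. Without thinning the shares were 85.3%, 84.5%, 94.2%, and 90.7% of SGC-like cells and 87.7%, 86.4%, 91.2%, and 89.7% of neurons. As a background from free RNA, thinned neurons had a UMI of the glial gene Fabp7 in 15.8% to 22.9% of cells. Thinned SGC-like cells had a UMI of the neuronal gene Mrgprd in 0% to 0.543%, where 0 of 107 cells allows a share of up to 3.39% (exact Clopper-Pearson interval, counting error only). Mrgprd is a gene of a single neuronal class, found in only 2.23% to 7.65% of thinned neurons, so its share says little on neuronal background. The thinned share of neurons with a B2m UMI was of the size of that with a Fabp7 UMI and is not read as expression cell by cell. These shares start from unlike glial levels. Fabp7 was at 13573 to 16276 CPM in SGC-like cells and 161 to 299 CPM in neurons. The B2m level of SGC-like cells was only 5.89 to 8.11 times the neuronal one. The part of free RNA in the neuronal B2m level was not tested. The summed level gives another measure of the background from free RNA, since the 6 SGC markers together had 854 to 1593 CPM in neurons and 105655 to 129181 CPM in SGC-like cells. In the other direction, the 5 pan-neuronal markers together had 403 to 661 CPM in SGC-like cells and 7008 to 9945 CPM in neurons.

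**Figure D1:**
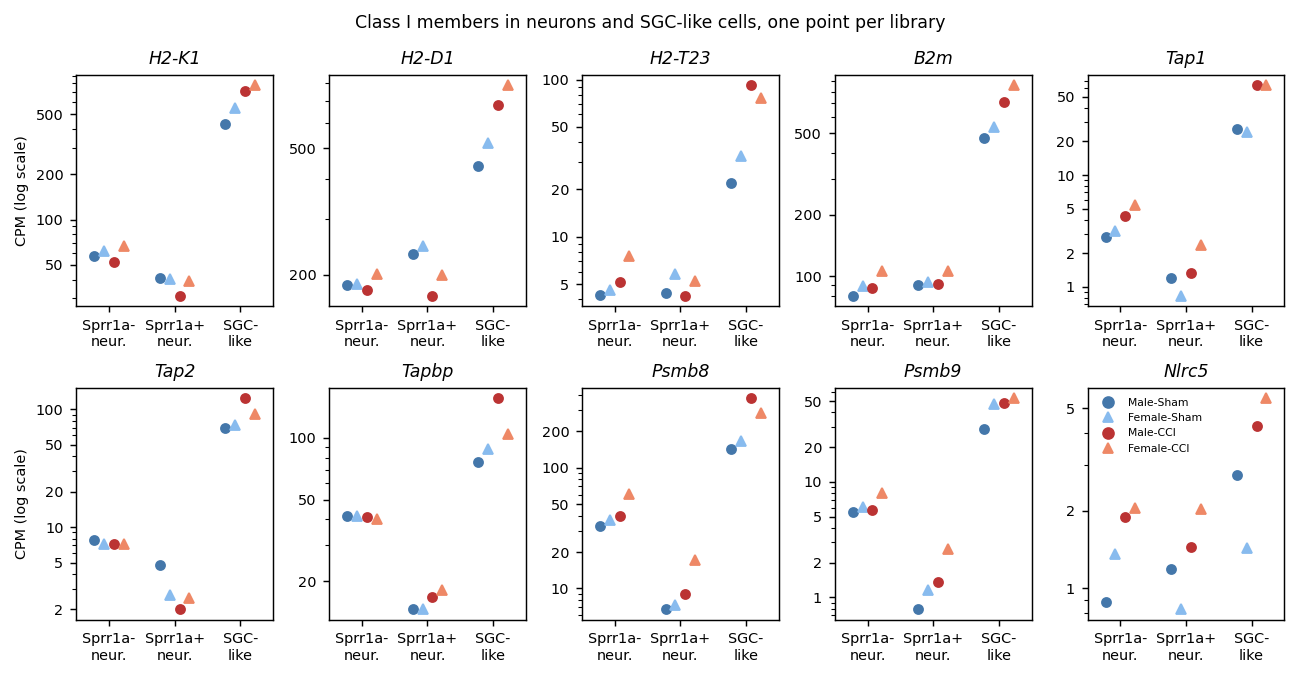
Level of each of the 10 genes in CPM (log axis) in Sprr1a- neurons, Sprr1a+ neurons, and SGC-like cells, 1 point per library, blue for sham, red for CCI, circles for males and triangles for females. The SGC-like points lie above the neuronal ones for all genes but Nlrc5, which rests there on 1 to 3 UMIs, and for B2m the 4 SGC-like libraries are at 473 to 861 CPM.

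After CCI the heavy chains, B2m, Tap1, and Psmb8 rose in SGC-like cells, of which only the call of Psmb8 was left without a few cells that held class II UMIs. H2-T23 was at 22.1, 32.8, 92.3, and 76.4 CPM, a log2 fold change of 1.63 (SE 0.25, edgeR's quasi-likelihood test, Benjamini-Hochberg adjusted p = 0.000813). Both CCI libraries were above both sham libraries, by a log2 ratio of 2.06 in males and 1.22 in females. Of the 10 genes 9 passed the filter on low counts and 6 were called higher, where 1.40% of all 7483 genes tested were called higher.

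The other heavy chains rose by less than H2-T23. H2-K1 was at 429, 545, 717, and 779 CPM, a log2 fold change of 0.57 (SE 0.13, edgeR's adjusted p = 0.0213). H2-D1 was at 438, 517, 684, and 788 CPM, a log2 fold change of 0.58 (SE 0.13, edgeR's adjusted p = 0.0176). B2m followed the heavy chains it pairs with, at 473, 535, 713, and 861 CPM and a log2 fold change of 0.60 (SE 0.13, edgeR's adjusted p = 0.0148).

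Among the genes that make and carry the peptides, Tap1 was at 25.8, 24.3, 63.9, and 63.7 CPM, a log2 fold change of 1.29 (SE 0.26, edgeR's adjusted p = 0.00882). Psmb8, the inducible chymotrypsin-like subunit, was at 142, 168, 376, and 286 CPM, a log2 fold change of 1.06 (SE 0.15, edgeR's adjusted p = 0.00028). In each of these 6 genes the lower CCI library lay above the higher sham library.

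Tap2 (70.0, 74.2, 124, and 91.0 CPM, log2 fold change 0.55, edgeR's adjusted p = 0.158), Tapbp (76.5, 88.5, 156, and 104 CPM, 0.64, adjusted p = 0.0815), and Psmb9 (28.6, 47.1, 48.3, and 52.8 CPM, 0.42, adjusted p = 0.538) did not pass the test. The female CCI library was the lower of the CCI pair for Tap2 and Tapbp. The median over the 9 tested members was 0.60, and over all genes 0.01.

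The calls of H2-K1, H2-D1, and B2m rested on both Male-Sham and Female-CCI. Without Male-Sham 3 genes were called (H2-T23, Tap1, and Psmb8), and without Female-CCI 4 were (H2-T23, Tap1, Tapbp, and Psmb8).

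Immune transcripts moved with these changes in SGC-like cells. Cells with UMIs of 3 or more of the 8 immune markers had been set aside beforehand, so low sums follow in part from that step. In the remaining cells the 8 immune markers summed to 1.84, 4.28, 46.9, and 109 CPM, with C1qa and Csf1r at 0 UMIs in every library. In the CCI libraries the sum was almost all Cd74, the class II invariant chain, with 1, 1, 29, and 60 UMIs in the 4 libraries, and in Female-CCI it was the only marker detected, in 4 of 107 cells of which 1 held 47 UMIs. All 5 T and NK cell markers were at 0 UMIs in SGC-like cells of every library.

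With the SGC-like cells that held a UMI of Cd74, H2-Aa, or H2-Ab1 left out, a choice made after seeing the data that left 182, 144, 117, and 103 cells, 1 of the 6 calls remained. That was Psmb8, with a log2 fold change of 0.91 (edgeR's adjusted p = 0.00197). H2-T23 (1.02, adjusted p = 0.0578) and Tap1 (1.00, adjusted p = 0.057) then missed the p limit, B2m (0.47, adjusted p = 0.0474) the size limit, and H2-K1 (0.27) and H2-D1 (0.36) both. The other 5 calls thus rested on these few cells. Endothelial markers had 20.3, 186, 104, and 111 CPM, fibroblast markers 380, 421, 518, and 397 CPM, and pan-neuronal markers 485, 482, 403, and 661 CPM in SGC-like cells, and their part in the result was not tested.

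Of the wider pathway in SGC-like cells, 2 of 4 tested other class I heavy chains were called higher, beside the 1.40% of all genes. H2-Q7 was at 3.69, 7.14, 31.2, and 56.4 CPM (log2 fold change 2.99, SE 0.48, edgeR's adjusted p = 0.00097) and H2-Q4 at 61.7, 69.9, 108, and 131 CPM (0.81, SE 0.20, adjusted p = 0.0285). Of 6 loading and trimming genes only the chaperone Calr was called, at 347, 294, 498, and 455 CPM (0.52, SE 0.13, adjusted p = 0.0285). None of 9 class I regulators, 6 interferon receptor and kinase genes, 5 other immunoproteasome and activator genes, or 3 constitutive subunits was called by edgeR, and DESeq2 gave an adjusted p for 1 of them, a constitutive subunit, which it did not call. At an unadjusted p under 0.05 these lists held 2 regulators, 2 other immunoproteasome and activator genes, and 0 of the others by edgeR. The class II genes H2-Aa (0, 0, 17, and 11 UMIs) and Cd74 were called higher, and their UMIs lay in few cells, H2-Aa in 3 of 120 and 2 of 107. Without the cells that held a class II UMI, the call of Calr remained (0.52, edgeR's adjusted p = 0.0278), that of H2-Q4 was lost (0.66, adjusted p = 0.0967), and H2-Q7 no longer passed the filter on low counts.

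Over all neurons, CCI and sham differed in few of the genes. Tap2 fell from 7.79 and 7.08 CPM in sham to 4.39 and 4.83 CPM in CCI (log2 fold change -0.63, SE 0.08, edgeR's quasi-likelihood test, Benjamini-Hochberg adjusted p = 0.000816). Nlrc5 rose from 0.894 and 1.35 CPM to 1.65 and 2.04 CPM (log2 fold change 0.77, SE 0.22, adjusted p = 0.0242). With 2 of 10 called, against 27.8% of all genes called in either direction, the share was near the background. The neurons also sat in different clusters in sham and CCI, since CCI-ind-like neurons, clusters of injured cells described with the classes below, were 1.40%, 2.56%, 45.7%, and 44.7% of them. SGC markers summed to 1277, 1593, 854, and 1054 CPM and endothelial markers to 0.912, 0.934, 9.10, and 11.5 CPM in neurons, and their part in the result was not tested. The endothelial list holds Ly6c1, also a top gene of a CCI-ind-like cluster, so its sum is not specific to endothelial cells. In Sprr1a- neurons alone the log2 fold change of Tap2 was -0.09 (SE 0.07).

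The remaining genes were not called over all neurons. Tapbp was at 41.3, 40.5, 27.9, and 29.2 CPM, apart in sham and CCI, but its log2 fold change of -0.46 (SE 0.04, edgeR's adjusted p = 0.000169) was under the size limit. B2m was at 80.3, 89.8, 89.8, and 106 CPM (log2 fold change 0.26, adjusted p = 0.0598), H2-T23 at 4.26, 4.61, 4.65, and 6.38 CPM (0.37, adjusted p = 0.0832), and H2-K1 at 57.2, 60.9, 40.9, and 53.1 CPM (-0.28, adjusted p = 0.14). H2-D1, Tap1, and Psmb8 overlapped between sham and CCI, with Psmb8 at 32.7, 35.7, 23.3, and 38.6 CPM, while Psmb9 was at 5.37, 5.92, 3.39, and 5.30 CPM (-0.32, edgeR's adjusted p = 0.248). The call of Nlrc5 was lost without Male-Sham and without Female-CCI.

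**Figure D2:**
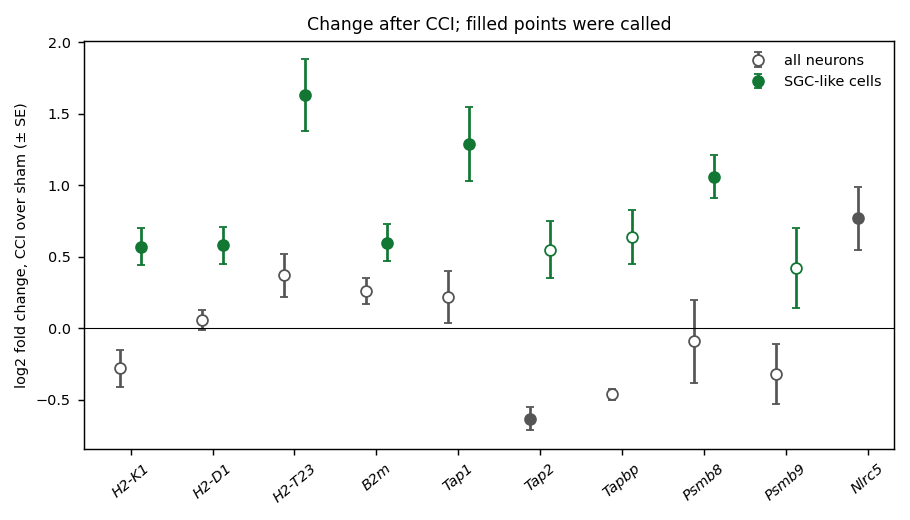
Log2 fold change of CCI over sham with its SE for each gene, grey for all neurons and green for SGC-like cells, filled where called, from 2 CCI and 2 sham libraries. H2-T23 stands at 1.63 in SGC-like cells and 0.37 in neurons, and Tap2 at 0.55 and -0.63; Nlrc5 was filtered out in SGC-like cells.

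The difference of the CCI change between the cell types was tested directly. This fit had no library term, so the SGC-like and neuronal sums of the same library were treated as independent although they share animals. It was called for Tapbp (1.15 on the log2 scale, SE 0.19, edgeR's adjusted p = 0.00382), Tap2 (1.21, SE 0.21, adjusted p = 0.00524), and H2-K1 (0.89, SE 0.20, adjusted p = 0.0401), each higher in SGC-like cells. That is 3 of 10, where 2.19% of all genes were called in either direction. For H2-T23 the difference was 1.30 (SE 0.33, adjusted p = 0.0592), and for B2m it was 0.37 (SE 0.17, adjusted p = 0.387). None of the 3 calls was left without Male-Sham or without Male-CCI, so they rest on these libraries. Without the SGC-like cells that held a class II UMI, the calls of Tap2 and Tapbp remained and that of H2-K1 was lost.

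Among other genes of the pathway over all neurons, 3 of 8 tested class I heavy chains rose and 1 fell. The lipid-presenting Cd1d1 was at 6.51, 7.60, 9.67, and 13.1 CPM (log2 fold change 0.75, SE 0.16, edgeR's adjusted p = 0.0135), while Fcgrt, the neonatal Fc receptor, was at 3.79, 4.01, 2.24, and 2.33 CPM (-0.72, SE 0.10, adjusted p = 0.001). H2-Q4 (1.05, 1.38, 1.74, and 2.46 CPM) and H2-Q7 (0.302, 0.401, 0.479, and 0.957 CPM) were also called higher. Of 10 class I regulators, the NF-kB subunits Rela (0.82, SE 0.05) and Nfkb1 (0.67, SE 0.07) rose and Irf1 (-0.56, SE 0.17) fell. Of 5 other immunoproteasome and activator genes, Psme1, a subunit of the 11S activator, fell from 68.1 and 74.6 CPM to 37.4 and 40.6 CPM (-0.82, SE 0.06, edgeR's adjusted p = 9.61e-05), and of 7 interferon receptor and kinase genes Jak2 rose (0.58, SE 0.09). Beside the 27.8% of all genes called, the 3 of 10 regulators, 1 of 5, and 1 of 7 were near or below the background. None of 5 class II, 6 loading and trimming, or 3 constitutive subunit genes was called by edgeR or by DESeq2, where 0, 2, and 3 of them had an unadjusted p under 0.05 by edgeR.

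The neuronal classes differed in their class I level. Clusters were named from markers, without the 10 genes among the clustering genes, as NF (large neurofilament neurons), NP (nonpeptidergic), PEP (peptidergic), cLTMR (C-low-threshold mechanoreceptors), and CCI-ind (clusters of injured neurons), each written with "-like", and 3 clusters with 1469 cells stayed unnamed. The order of the levels is given as a description. In sham, PEP3/4-like neurons were highest for 8 of the 10 genes. H2-K1 ran from 112 CPM ± 2.24 (SD, n = 2) in PEP3/4-like and 72.6 ± 1.97 in NP2-like neurons to 21.3 ± 3.31 in NF2-like and 2.93 ± 0.104 in NF1-like neurons.

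B2m ran from 142 CPM ± 1.08 in PEP3/4-like and 124 ± 5.14 in PEP5-like to 35.0 ± 4.99 in NF1-like and 28.0 ± 2.23 in NP1-like neurons (SD, n = 2 sham libraries). H2-D1 was highest in cLTMR-like (279 ± 3.37 CPM) and CCI-ind-like neurons (250 ± 15.0 CPM), whose libraries overlapped from CCI-ind-like to PEP3/4-like but not from cLTMR-like to CCI-ind-like, and lowest in NF2-like (62.4 ± 6.09 CPM) and NF1-like neurons (56.2 ± 4.77 CPM), which overlapped. So heavy and light chain did not share an order, and NP1-like neurons, last for B2m, were the third for H2-K1 at 59.8 ± 6.94 CPM. Between neighbours in the order, the 2 sham libraries of one class overlapped those of the next in 3 of 10 steps for H2-K1 and B2m and in 5 for H2-D1.

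Psmb8 was at 79.5 CPM ± 4.76 in PEP3/4-like, 44.3 ± 5.67 in PEP2-like, and 40.0 ± 2.31 in PEP1-like neurons, and at 2.30 ± 0.732 in NF1-like neurons (SD, n = 2 sham libraries). Tap1 was at 8.40 ± 1.58 CPM in PEP3/4-like and 0.552 ± 0.0943 CPM in NF1-like neurons, Tap2 at 13.4 ± 1.26 and 2.80 ± 0.526 CPM, and Psmb9 at 9.74 ± 0.0587 and 1.27 ± 0.264 CPM in the same classes. Tapbp ran against this order. It was highest in NF1-like (69.7 ± 2.73 CPM), PEP5-like (68.1 ± 2.85 CPM), and NF2-like neurons (63.0 ± 3.32 CPM) and lowest in CCI-ind-like neurons (14.8 ± 2.03 CPM). Nlrc5 was low throughout, 3.15 ± 0.211 CPM in PEP3/4-like and 0.134 ± 0.0995 CPM in NP2-like neurons.

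**Figure D3:**
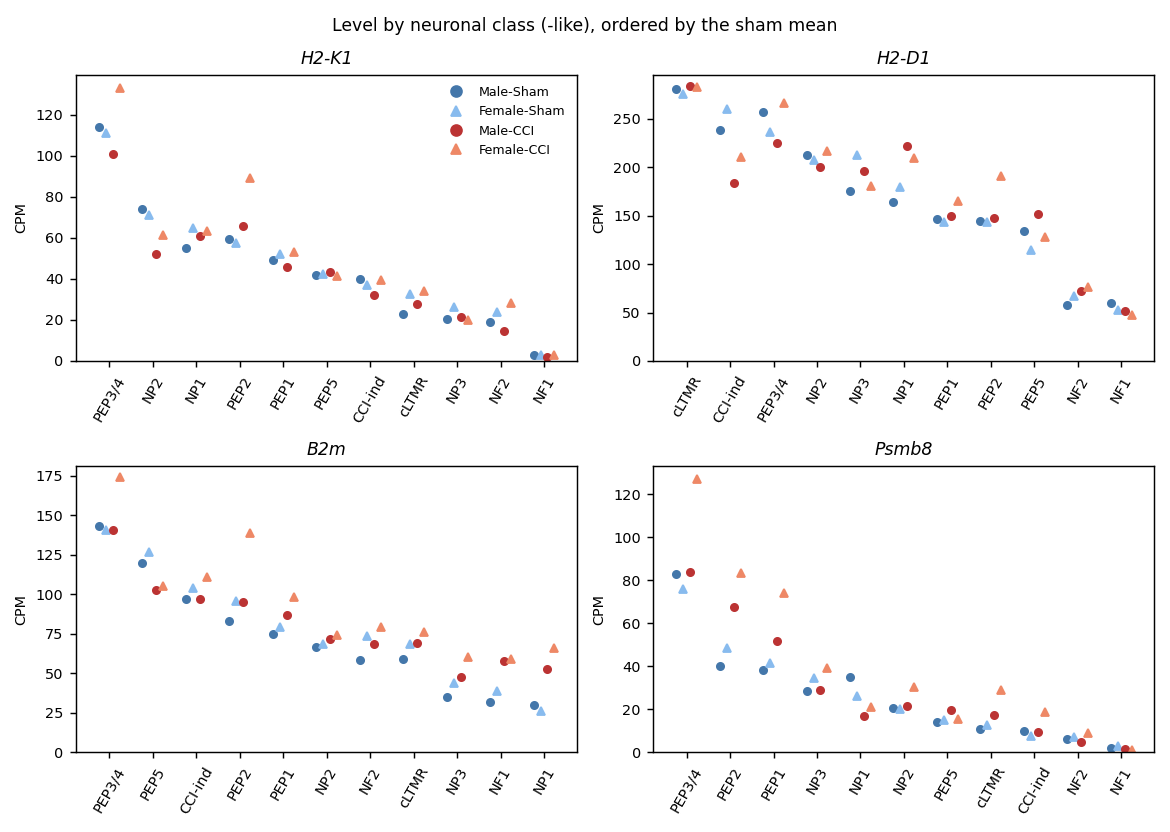
CPM of H2-K1, H2-D1, B2m, and Psmb8 in 11 neuronal classes, ordered from left to right by the mean of the sham libraries, 1 point per library in the colours and shapes for surgery and sex. PEP3/4-like neurons stand first for H2-K1 (112 CPM in sham), B2m (142 CPM), and Psmb8 (79.5 CPM), and NF1-like neurons last or next to last in all 4 panels.

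Over 44 sums (11 classes in 4 libraries), H2-K1 and Psmb8 had a Pearson r of 0.84 and H2-K1 and Tapbp one of -0.26, and sums of the same library share depth and animals. Among 8304 genes with a mean of at least 10 CPM, those whose log2 level was most like the mean of B2m, H2-K1, and H2-D1 were Rsrp1 (r = 0.91), Rpl21 (0.88), Swt1 (0.88), Slc24a5 (0.87), and Cetn3 (0.87). These correlations are across classes that share libraries and carry no test.

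Within the CCI libraries, Sprr1a+ neurons had less of the peptide-supply genes than Sprr1a- neurons. Psmb8 had a level of 8.95 CPM in the Sprr1a+ neurons of males against 40.2 CPM in the Sprr1a- ones, and of 17.2 against 60.3 CPM in females, a log2 difference of -1.80 (SE 0.10, edgeR's quasi-likelihood test with library as a term, Benjamini-Hochberg adjusted p = 9.61e-05). Psmb9 was at 1.37 against 5.77 CPM in males and 2.62 against 8.02 CPM in females (-1.64, SE 0.12, edgeR's adjusted p = 1.73e-06). In both libraries the Sprr1a+ sum was below the Sprr1a- sum.

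The transporter and loading genes went the same way. Tap2 was at 2.01 against 7.19 CPM in males and 2.52 against 7.19 CPM in females (-1.50, SE 0.11, edgeR's adjusted p = 7.36e-07). Tap1 was at 1.34 against 4.29 and 2.38 against 5.42 CPM (-1.23, SE 0.14, adjusted p = 2.74e-05), and Tapbp at 16.8 against 41.0 and 18.1 against 40.4 CPM (-1.05, SE 0.05, adjusted p = 1.7e-08). With H2-K1, at 31.2 against 52.3 and 39.2 against 67.2 CPM (-0.59, SE 0.04, adjusted p = 2.01e-07), 6 of the 10 genes were called lower, where 24.7% of all genes were called lower and 45.5% in either direction.

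The light chain and the second classical heavy chain did not share this fall. B2m was at 91.5 against 87.7 CPM in males and 106 against 106 CPM in females, and H2-D1 at 172 against 179 and 200 against 202 CPM. Their fitted log2 differences, 0.21 (SE 0.03, edgeR's adjusted p = 0.000233) for B2m and 0.14 (SE 0.03, adjusted p = 0.00149) for H2-D1, were under the size limit, and TMM scaling placed fitted values a median of 0.17 above the ratios of plain CPM in this comparison, so that the sign for H2-D1 differs between the scales. H2-T23 (-0.23, SE 0.09) and Nlrc5 (-0.01, SE 0.16) were not called. The median over the 10 genes was -0.82.

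**Figure D4:**
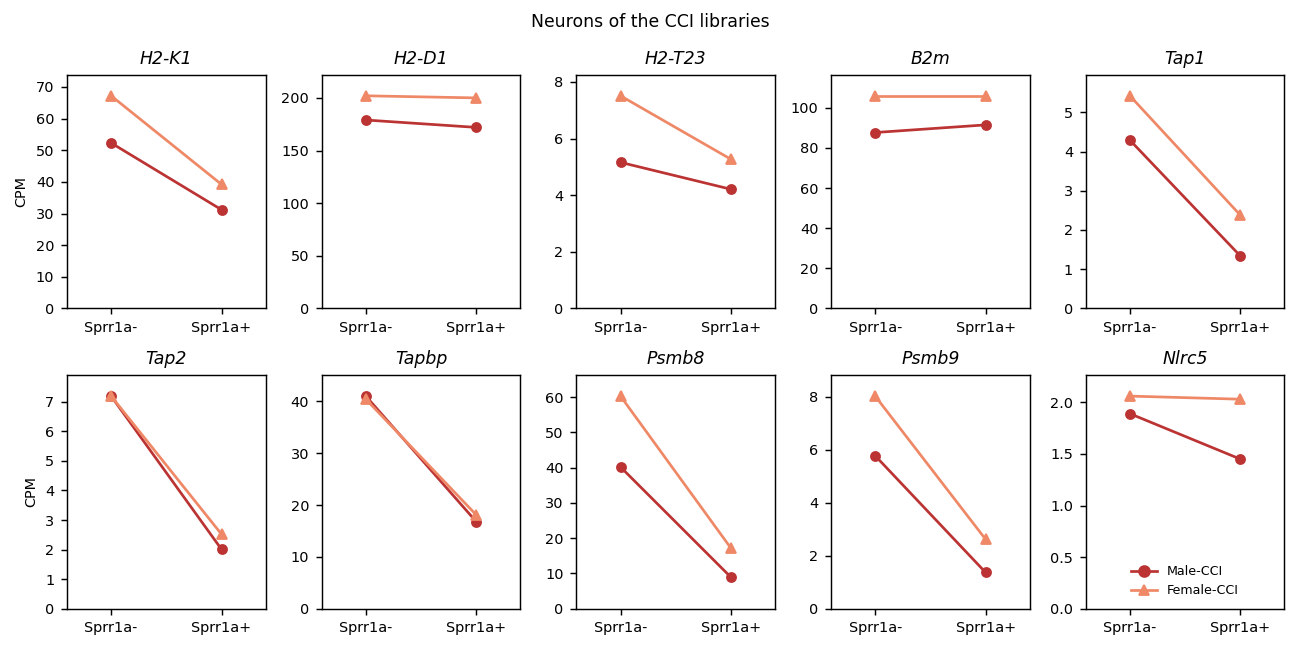
CPM of each gene in Sprr1a- and Sprr1a+ neurons of the 2 CCI libraries, joined by a line within a library. The lines fall for H2-K1, Tap1, Tap2, Tapbp, Psmb8, and Psmb9, with Psmb8 from 40.2 to 8.95 CPM in males and 60.3 to 17.2 CPM in females, and stay level for B2m and H2-D1.

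These pooled sums also differ in their make-up, since CCI-ind-like neurons were 85.0% and 86.9% of the Sprr1a+ neurons of the male and female CCI library. Their original class was not determined, and class and injury cannot be told apart in the pooled values. The SGC markers summed to 652 and 961 CPM in Sprr1a+ and 1091 and 1149 CPM in Sprr1a- neurons. Endothelial markers summed to 14.9 and 19.9 against 2.30 and 2.93 CPM and immune markers to 7.30 and 11.8 against 6.88 and 3.68 CPM. Cd74 (1.42, SE 0.21) and H2-Aa (1.42, SE 0.34) were called higher in Sprr1a+ neurons by edgeR. The endothelial list holds Ly6c1, also a top gene of a CCI-ind-like cluster, so its sum is not specific to endothelial cells. Of the immune markers, Csf1r alone was at 3.24 and 2.36 CPM in Sprr1a+ against 0.402 and 0.265 CPM in Sprr1a- neurons. Whether these transcripts came from other cells, and their part in the result, was not tested. With neurons that held a Fabp7 UMI left out, the same 6 genes were called lower, by log2 differences of -0.72 (H2-K1) to -2.07 (Psmb8). Within CCI-ind-like neurons, where only 40 and 72 cells were Sprr1a-, H2-K1 (-0.53, SE 0.12, edgeR's adjusted p = 0.000624) and Psmb8 (-0.66, SE 0.17, adjusted p = 0.00266) were called lower, 2 of 10 where 4.61% of all genes were called in either direction, and Tapbp was at 16.6 and 18.1 CPM in Sprr1a+ against 18.3 and 16.1 CPM in Sprr1a- cells. These calls were kept in 7 of 13 alternatives for H2-K1 and in 8 of 13 for Psmb8.

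Within classes that held at least 10 Sprr1a+ and 10 Sprr1a- neurons in both CCI libraries, B2m was higher and Tapbp lower in injured NF1-like neurons. B2m was at 89.2 and 88.1 CPM in Sprr1a+ NF1-like neurons of CCI, 31.6 and 44.5 CPM in Sprr1a- ones, and 31.5 and 38.5 CPM in Sprr1a- ones of sham, a log2 difference within CCI of 1.58 (SE 0.14, edgeR's adjusted p = 1.16e-08). It was 0.49 (edgeR's adjusted p = 0.134) where any Sprr1a UMI made a neuron positive, the alternative of 14 in which the call was lost. Tapbp was at 18.6 and 25.2 against 74.2 and 59.7 CPM (-1.43, SE 0.17, adjusted p = 6.2e-07). H2-K1 rested on 5 to 11 UMIs per sum in these cells and was not called. In this and the following class comparisons 6 to 10 of the genes passed the filter on low counts. With Tap2, which had 1 and 0 UMIs in Sprr1a+ and 17 and 11 UMIs in Sprr1a- cells, 3 genes of the 6 tested here were called, where 42.5% of all genes were. That share was near the background.

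In NF2-like neurons 5 of 8 tested genes were called within CCI, all lower, where 31.7% of all genes were called in either direction. Tapbp was at 16.0 and 17.0 CPM in Sprr1a+ against 58.6 and 48.0 CPM in Sprr1a- cells (-1.50, SE 0.17, edgeR's adjusted p = 2.52e-05). Psmb8 was at 1.15 and 4.10 against 10.8 and 13.2 CPM (-2.11, SE 0.38, adjusted p = 0.00093), and H2-K1 at 9.55 and 21.4 against 22.2 and 33.3 CPM (-0.70, SE 0.20, adjusted p = 0.0149). Tap1 had 2 and 4 UMIs against 10 and 16, and Psmb9 had 0 and 1 UMIs against 23 and 17. B2m, at 65.7 and 73.8 against 72.9 and 83.1 CPM, was not called here (0.04, SE 0.13), unlike in NF1-like neurons, and the difference between the classes was not tested.

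In NP1-like neurons B2m was again higher, at 57.3 and 69.1 CPM in Sprr1a+ against 35.0 and 54.2 CPM in Sprr1a- cells (0.58, SE 0.15, edgeR's adjusted p = 0.0158), and Tapbp lower, at 17.5 and 16.0 against 36.1 and 25.1 CPM (-0.80, SE 0.19, adjusted p = 0.012). That is 2 of 8 tested where 22.8% of all genes were called, a share near the background. The B2m call was kept in 11 of 14 alternatives, with differences of 0.41 to 1.84. This class held 2 clusters, numbered 24 and 25, and the comparison was largely one between them, since cluster 24 held 96 and 104 of the Sprr1a+ but 4 and 12 of the Sprr1a- cells, and cluster 25 held 2 and 3 against 27 and 23. In PEP5-like neurons, with 13 and 16 Sprr1a+ cells, Tapbp alone was called (40.4 and 23.4 against 66.2 and 55.1 CPM, -0.84, SE 0.30, edgeR's adjusted p = 0.037), where 17.0% of all genes were, a call kept in 5 of 11 alternatives, and its sign turned when any Sprr1a UMI made a neuron positive (0.19). The SGC markers in these classes lay between 59.4 and 539 CPM in every sum of the CCI libraries but PEP5-like, for which they were not summed.

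**Figure D5:**
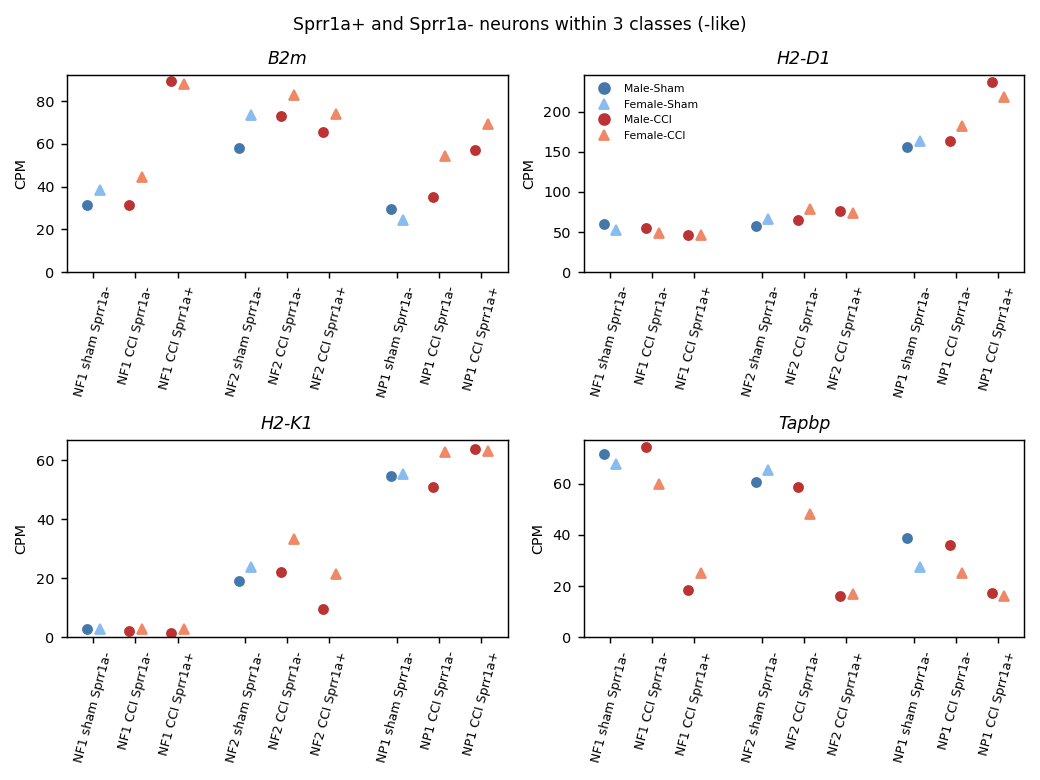
CPM of B2m, H2-D1, H2-K1, and Tapbp in NF1-, NF2-, and NP1-like neurons, for Sprr1a- neurons of sham, Sprr1a- neurons of CCI, and Sprr1a+ neurons of CCI, 1 point per library. B2m in NF1-like neurons lies at 88.1 and 89.2 CPM in Sprr1a+ and 31.5 to 44.5 CPM in Sprr1a- sums, and Tapbp falls below 26 CPM in the Sprr1a+ sums of all 3 classes.

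Against Sprr1a- neurons of sham, a comparison that shares its CCI sums with the one above, Sprr1a+ neurons of CCI differed in 5 of 10 genes, where 49.8% of all genes were called in either direction. The share was thus near the background. Tap2 (-1.59, SE 0.12), Psmb9 (-1.39, SE 0.28), Tapbp (-1.10, SE 0.05), and H2-K1 (-0.61, SE 0.11) were lower by edgeR's test, and Nlrc5 (0.77, SE 0.26, edgeR's adjusted p = 0.0294) was higher. Psmb8, at 8.95 and 17.2 CPM against 33.1 and 36.6 CPM in sham, was not called (-1.27, SE 0.38, adjusted p = 0.059).

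Within classes this comparison called members in both directions. In NF1-like neurons B2m (1.68, SE 0.12) and H2-T23 (1.45, SE 0.45, 3.17 and 3.60 against 1.39 and 1.65 CPM) were higher and Tapbp (-1.42, SE 0.14), Psmb8 (2 and 1 UMIs against 23 and 29), and Tap2 lower, 5 of 7 tested where 45.4% of all genes were called. The Psmb8 call was kept in 3 of 15 alternatives (-0.38 to -2.14) and was lost without Male-Sham, Male-CCI, or Female-CCI, and that of H2-T23 was kept in 10 of 17 and lost without either sham library or Male-CCI. In NP1-like neurons B2m (57.3 and 69.1 against 29.3 and 24.3 CPM, 1.28, SE 0.14, edgeR's adjusted p = 4.44e-10) and H2-D1 (237 and 218 against 156 and 163 CPM, 0.57, SE 0.10, adjusted p = 5.78e-06) were higher, and Psmb9 (-1.60), Tap2 (-1.14), Psmb8 (-0.96), and Tapbp (-0.95) lower, 6 of 8 tested where 41.1% of all genes were. The sham cells lay mostly in cluster 25 (82 and 63 cells) and the Sprr1a+ cells of CCI mostly in cluster 24, and the call of Tap2 was lost without Male-Sham or Male-CCI. H2-K1 in the same cells was at 63.8 and 63.2 against 54.5 and 55.5 CPM (0.27, SE 0.11) and not called.

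In NF2-like neurons H2-D1 (75.8 and 74.1 against 58.1 and 66.7 CPM, 0.52, SE 0.13, edgeR's adjusted p = 0.00745) and H2-T23 (5.92 and 6.15 against 3.25 and 4.23 CPM, 0.94, SE 0.32, adjusted p = 0.0353) were higher. Tapbp (-1.68, SE 0.14) was lower, as were Tap2 (0 and 2 UMIs against 14 and 21) and Psmb9 (0 and 1 UMIs against 22 and 24), making 5 of 8 tested where 40.2% of all genes were called. The H2-D1 call was kept in 8 of 18 alternatives (0.32 to 0.62) and lost without Male-Sham or Male-CCI, and that of H2-T23 in 10 of 18 and lost without either sham library or Male-CCI. In PEP5-like neurons Tapbp alone was called (-1.09, SE 0.26, edgeR's adjusted p = 0.00407), where 20.8% of all genes were, and the call was lost without Female-CCI.

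In Sprr1a- neurons, few genes changed after CCI. These neurons are not read as uninjured. Their sums had Sprr1a at 0.47, 1.24, 23.1, and 27.0 CPM and Atf3, another injury-induced gene, at 113, 127, 175, and 200 CPM. In the CCI libraries they included 40 and 72 CCI-ind-like cells. The part of injured cells or their RNA in the changes below was not tested. Over all Sprr1a- neurons Tap1 rose from 2.79 and 3.19 CPM in sham to 4.29 and 5.42 CPM in CCI (log2 fold change 0.68, SE 0.14, edgeR's adjusted p = 0.0227), 1 of 10 where 3.24% of all genes were called higher. That call held without Male-CCI and was lost without any other library. Nlrc5 (0.78, SE 0.22, adjusted p = 0.0551), Psmb8 (0.51, SE 0.23, adjusted p = 0.241), and H2-T23 (0.50, SE 0.18, adjusted p = 0.107) were not called.

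By class, the calls in Sprr1a- neurons were all higher in CCI and fell on peptide-supply genes and Nlrc5. In PEP1-like neurons Tap1 rose from 1.44 and 2.11 to 3.57 and 4.87 CPM (1.24, SE 0.26, edgeR's adjusted p = 0.00802) and Psmb9 from 4.63 and 5.05 to 6.59 and 7.91 CPM (0.59, SE 0.16, adjusted p = 0.0264), 2 of 10 where 2.48% of all genes were called higher. In PEP2-like neurons Psmb8 rose from 40.3 and 48.3 to 67.5 and 83.6 CPM (0.76, SE 0.12, adjusted p = 0.00142) and Tap1 from 4.54 and 5.17 to 8.81 and 7.30 CPM (0.71, SE 0.22, adjusted p = 0.0364), again 2 of 10 against 2.45%. In each of these the CCI libraries were above the sham libraries. The call of Psmb9 was kept in 9 of 18 alternatives (0.38 to 0.70) and lost without Female-CCI or either sham library, and that of Tap1 in PEP2-like neurons in 10 of 17 and lost without Male-CCI or either sham library.

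In PEP3/4-like neurons Tap1 rose from 9.52 and 7.28 to 11.0 and 13.0 CPM (0.52, SE 0.15, edgeR's adjusted p = 0.0261), 1 of 10 where 2.30% of all genes were called higher. In NF2-like neurons Psmb8 rose from 5.98 and 6.92 to 10.8 and 13.2 CPM (0.95, SE 0.24, adjusted p = 0.0437), 1 of 9 tested where 1.38% were. That call was kept in 8 of 16 alternatives and lost without Female-CCI or either sham library, and that of Tap1 in PEP3/4-like neurons was kept in 13 of 18 and lost without Female-Sham or either CCI library. In cLTMR-like neurons Nlrc5, with 5, 13, 7, and 18 UMIs, rose from 0.255 and 0.496 to 1.09 and 1.81 CPM (1.88, SE 0.54, adjusted p = 0.0384), 1 of 10 where 0.885% were, a call kept in 11 of 16 alternatives and lost without Male-Sham or either CCI library. No member was called in NF1-, NP1-, NP2-, NP3-, or PEP5-like Sprr1a- neurons by edgeR, where 0, 1, 3, 2, and 2 members had an unadjusted p under 0.05, or by DESeq2, which gave no adjusted p for 5, 6, 0, 7, and 5 of those tested. Some of these passed the adjusted limit with a change under the size limit, among them H2-K1 in NP2-like (-0.38, edgeR's adjusted p = 0.00399) and B2m in PEP5-like neurons (-0.27, adjusted p = 0.0391), both lower in CCI, while B2m in PEP1-like neurons was higher (0.27, adjusted p = 0.027).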

How the data were processed

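Droplet 3' libraries of GFP+ sorted DRG cells were deposited by the authors as raw UMI counts per gene and called cell barcode, made with Cell Ranger on mm10 (version 2.1.1 per the labels and 3.0.2 per the file headers), 1 matrix per library. Cells with at least 1500 genes and at most 10% mitochondrial UMIs were kept, the cells with the highest Scrublet scores (scanpy 1.11.5, expected rate 0.1) were removed as doublets, as many per library as the study's supplement states, since Scrublet's own threshold marked 2, 121, 0, and 0 cells, and cells were clustered with Seurat 5.3.0 after integration, without the 10 genes and at a resolution of 0.8. Neuronal classes were named from marker genes, so differences from the study's classes may come from the rebuilt names. Counts were summed per library and class (at least 10 cells) and tested with edgeR 4.0.16 (filterByExpr, TMM scaling, robust quasi-likelihood fit) with Benjamini-Hochberg adjustment over all genes tested, and a gene was called at an adjusted p under 0.05 and an absolute log2 fold change above 0.5. The fits were tested on simulated counts. Of log2 changes of 1, 78.4% were recovered for CCI against sham in all neurons and 59.6% in SGC-like cells. The share was 83.0% for Sprr1a+ against Sprr1a- neurons within CCI and 50.0% for SGC-like cells against neurons. Of log2 changes of 2, 99.1%, 90.0%, 99.0%, and 72.4% were recovered in the same order. False calls numbered 17, 19, 12, and 28. They stand beside 88, 89, 100, and 100 genes simulated with a log2 change of 1, and 107, 100, 97, and 98 with one of 2. The 4 libraries were grouped by surgery and sex from their labels. All 10 genes were named in every comparison, of the other lists at most the 4 called genes of largest change, and the 5 genes most like B2m, H2-K1, and H2-D1 by Pearson r. The genes, lists, and alternatives were chosen with earlier results of these data known. Alternatives covered DESeq2 1.42.0, scaling, filters, doublets, clustering, the Sprr1a limit, sex as a block, and each library left out. Intervals and floors cover counting error only.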

Additional observations from a re-analysis of the deposited data

Results flagged for a closer look

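The CCI change of 3 genes differed between SGC-like cells and neurons by edgeR's test of the difference itself, fitted without a library term. The difference was 0.89 for H2-K1, 1.21 for Tap2, and 1.15 for Tapbp on the log2 scale, and in each case it was the larger in SGC-like cells.

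In neurons, 3 genes went in opposite directions after CCI in the male and the female pair of libraries, with 1 library per sex and surgery, so the difference was not tested. The log2 ratio of CCI over sham was -0.09 in males and 0.09 in females for H2-D1, -0.04 and 0.32 for Tap1, and -0.49 and 0.11 for Psmb8.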

How the results depend on the processing

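Each comparison was recomputed under the alternatives, of which 3 were added after seeing the data (cells with a barcode found in another library left out, immune cells kept among the SGC-like cells, and SGC-like cells with a class II UMI left out). Of 1129 recomputed changes of the 10 genes in the comparisons that were not split by neuronal class, 1029 kept their direction and side of the limits, 34 lost a call, 38 gained one, 0 reversed while called, and 28 with no call changed sign, reaching at most 0.433 on the log2 scale. Of 37 calls within neuronal classes, 12 were kept in every alternative that gave a value, 20 in most, and 5 in at most 0.5 of them. Tapbp in PEP5-like neurons within CCI reversed to 0.19 when any Sprr1a UMI made a neuron positive. The number of genes called in SGC-like cells after CCI went from 6 to 3 with DESeq2, which gave no adjusted p for 6 of the 9 tested, to 1 without SGC-like cells with a class II UMI, and to 3 to 7 when 1 library was left out. Over all neurons leaving out 1 library gave 1 to 3 in place of 2, with 1 left without Male-Sham. For Sprr1a+ neurons of CCI set against the Sprr1a- ones of sham the number went from 5 to 3 with any Sprr1a UMI, and to 4 to 6 without 1 library. For Sprr1a- neurons, CCI against sham, it went from 1 to 3 with any Sprr1a UMI and to 2 with DESeq2, with doublets kept, without neurons that held an immune marker UMI, and with no filter on low counts. Without 1 library it was 0 to 3, with 0 left without Female-CCI or without Male-Sham. For SGC-like cells against neurons 8 or 9 were called without 1 library. For the difference of the CCI change, 5 in place of 3 were called with DESeq2 and 5 with immune cells kept, and 0 to 3 without 1 library, with 0 left without Male-CCI or without Male-Sham. The cause of these shifts was not tested. With sex as a replicate block, 2 genes were called in Sprr1a- neurons (1 without the block) and 6 in the difference of the CCI change (3 without), where H2-T23 (1.31, edgeR's adjusted p = 0.008), H2-D1 (0.56, adjusted p = 0.000216), and Tap1 (1.11, adjusted p = 0.0477) were added, and the block (or its absence, where library was already a term) moved no other count of calls by more than 1.5 times. By the labels the libraries of a sex share the sex, and whether they also shared a batch or day is not stated. Their deviations from the group means correlated at 0.7 in neurons, 0.76 in Sprr1a- neurons, and 0.1 in SGC-like cells. The source of this correlation was not tested, and the main fits of CCI against sham had no term for sex. No fit within 1 CCI library was made for Sprr1a+ against Sprr1a- neurons, since 1 pair leaves no residual, and a minimum of 3000 genes was not run for SGC-like cells, which then numbered 24, 1, 13, and 3. SGC-like sums are shallow beside neuronal ones, so small changes in SGC-like cells may not have been detectable at this depth.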
